A study of Mus musculus with 6 samples.

Results

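Genes that white fat cells are known for were read in 6 bulk RNA-seq libraries of MC38 tumors. They are the 10 genes Adipoq, Plin1, Plin4, Fabp4, Lep, Pparg, Cidec, Lpl, Cfd and Retn, found by gene name among the 33965 genes of the deposited table, and 10 of 10 passed the filter on low counts that left 19602 genes to test. MC38 is a mouse colon carcinoma line, and the cells were inoculated under the skin of C57BL/6 mice that the methods describe as female and 6 weeks old at purchase. The PBS group holds 3 tumors of mice given phosphate-buffered saline. The GB2 group holds 3 tumors of mice given GB2, a prodrug that links the STING agonist MSA-2 to artesunate. STING is a sensor protein that turns on interferon genes. The dose of the sequenced tumors is not given on its own, and the MC38 model of the study received 10 mg/kg intravenously. The sampling time of these tumors is not given in the sources used here. The labels name each tumor separately without naming the animal, so the p-values measure the spread between these 6 tumors.

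White adipocytes store triglyceride in a large lipid droplet and release it as fatty acids when other tissues need fuel. The nuclear receptor PPARγ, working with C/EBP transcription factors, switches on most genes of the mature cell, among them droplet coats, fatty acid carriers and secreted adipokines. A fat layer lies under mouse skin, where these tumors were grown. Several of the 10 genes also have other sources, since Fabp4 and Pparg are known in macrophages, Fabp4 in capillary endothelium, and Lpl in muscle and macrophages. In bulk tissue, fewer cells of a type and less RNA per cell cannot be told apart.

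Promoter windows were available in RefSeq on GRCm38.p6 for 8 of the 10 genes, with 11 windows in all because Pparg and Cidec have more than 1 start site. Each window runs from 250 bases before to 50 bases after a start site. They were searched on both strands for TTGCNNAA, the core of a C/EBP site, for AGGTCA, a nuclear receptor half-site, for AGGTCA, any base N and AGGTCA again, the direct repeat that PPARγ binds with RXR, and for the TATA box core TATAAA. The C/EBP core was present in 4 of the 11 windows, belonging to Plin1, Lep, Cidec and Pparg, against 10.8% of 32851 mouse promoter windows of the same length. The half-site was present in 2 windows, both of Pparg, against 16.3% of all windows. The direct repeat was in none of the 11 and in 0.0396% of all windows, and TATAAA was in 1 window of Pparg, against 13.6%. Windows of 3 genes with the C/EBP core are printed, with the core in capitals. They were picked because each of these genes had its lowest value of the 6 tumors in PBS tumor 3. Adipoq, Plin4, Cfd and Retn, whose windows lack the core, were also lowest in that tumor, and Pparg, which has it, was not. The Plin1 window is chr7:79732727-79733026 on the minus strand, the Lep window chr6:29059971-29060270 on the plus strand, and the Cidec window chr6:113434715-113435014 on the minus strand.
Plin1 promoter: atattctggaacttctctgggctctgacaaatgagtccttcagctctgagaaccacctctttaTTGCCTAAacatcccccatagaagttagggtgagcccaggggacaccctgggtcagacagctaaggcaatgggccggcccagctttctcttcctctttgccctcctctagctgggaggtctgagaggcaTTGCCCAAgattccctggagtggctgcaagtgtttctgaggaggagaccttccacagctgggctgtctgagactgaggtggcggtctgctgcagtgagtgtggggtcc
Lep promoter: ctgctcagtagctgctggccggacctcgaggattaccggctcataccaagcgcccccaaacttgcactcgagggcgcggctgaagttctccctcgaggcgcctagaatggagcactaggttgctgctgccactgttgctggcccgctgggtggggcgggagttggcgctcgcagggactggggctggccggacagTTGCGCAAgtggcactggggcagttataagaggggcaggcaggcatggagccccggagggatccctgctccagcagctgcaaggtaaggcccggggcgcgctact
Cidec promoter: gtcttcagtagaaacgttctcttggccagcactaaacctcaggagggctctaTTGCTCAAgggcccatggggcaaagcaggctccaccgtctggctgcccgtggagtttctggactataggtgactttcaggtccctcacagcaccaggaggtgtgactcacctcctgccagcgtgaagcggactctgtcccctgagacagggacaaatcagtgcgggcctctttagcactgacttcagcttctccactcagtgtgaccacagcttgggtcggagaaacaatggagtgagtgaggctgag

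The match in the Lep window reads the same on both strands and begins 55 bases before the start site. The Plin1 window holds 2 matches, which begin 187 and 58 bases before the start site, and the match in the Cidec window begins 198 bases before it. A match is a run of letters and does not show that a factor was bound in these tumors.

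The adipocyte genes stood apart in 1 of the 6 tumors, PBS tumor 3, where most were far lower than elsewhere. In 9 of the 10 genes, all but Pparg, PBS tumor 3 had the lowest CPM of the 6 tumors, where CPM are counts scaled to library size with TMM factors. Values are given in the order of tumors 1, 2 and 3 of each group. PBS tumor 3 was the lowest tumor in 18.4% of all genes tested, and PBS tumor 1 in 31.8%. The summed CPM of the 10 genes was 89.8, 77.9 and 22.4 in the PBS and 110, 85.9 and 113 in the GB2 tumors. PBS tumor 3 thus lay below the other tumors, while the highest PBS value exceeded the lowest GB2 value.

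**Figure D1:**
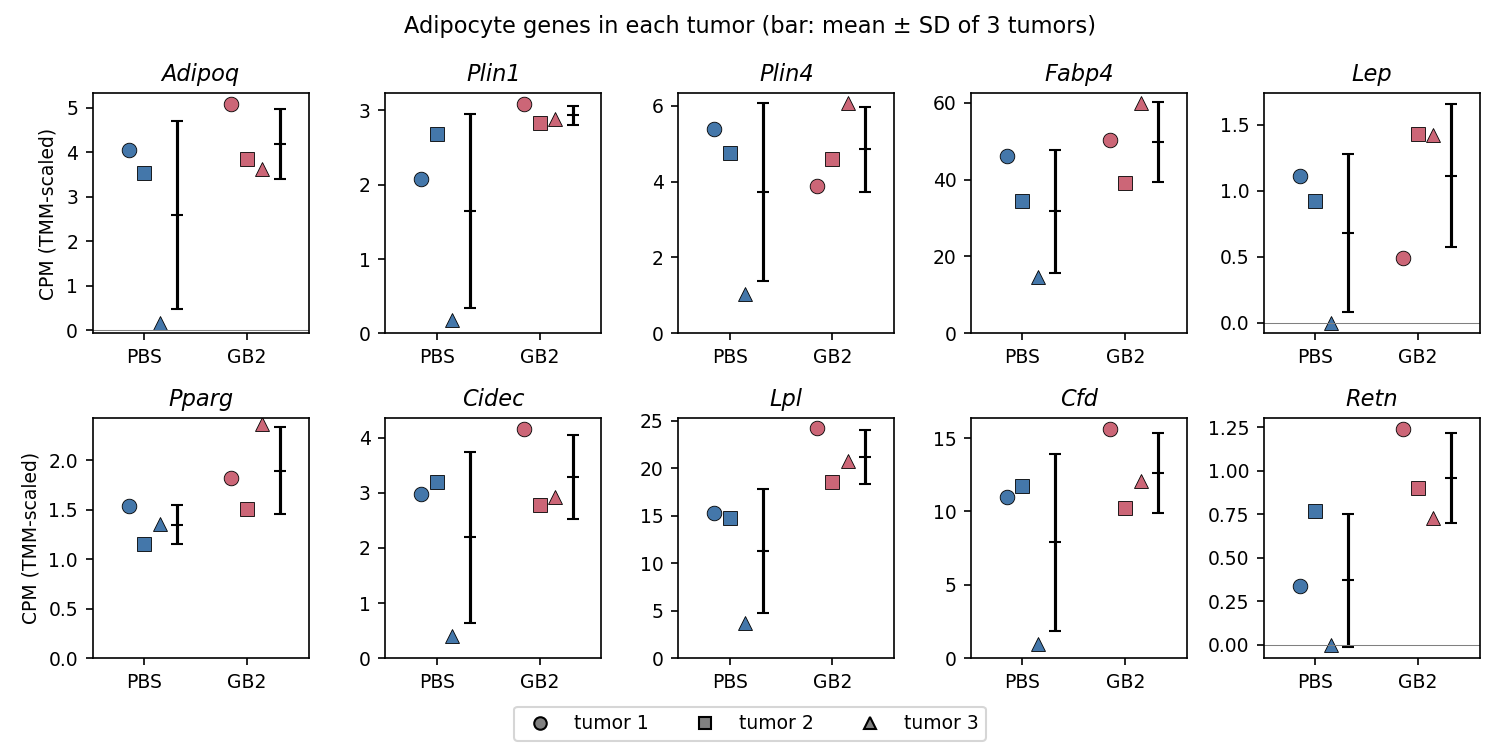
TMM-scaled CPM of the 10 adipocyte genes in each of 3 PBS and 3 GB2 tumors, with the mean ± SD beside each group (n = 3). PBS tumor 3, the blue triangle, is the lowest point for every gene except Pparg, at 0.170 CPM for Adipoq against 3.53 to 5.07 CPM in the other tumors.

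Between the groups, 10 of 10 adipocyte genes had a positive log2 fold change for GB2 over PBS, against 48.3% of all genes tested, and the median over the 10 genes was 0.69, against -0.02 over all genes. None of these differences passed a test. Genes were called at the limits of the study's methods, adjusted p < 0.05 with at least a 2-fold difference, which took 0 of the 10 genes and 0 of 19602 genes (0%) in the quasi-likelihood test of edgeR. At an unadjusted p under 0.05, 0 of the 10 were reached, against 1360 of all genes (6.94%). Adding the 2-fold limit left 3.74% of all genes on the higher and 0.918% on the lower side in GB2. DESeq2, run without the filter on low counts, called 373 of 31805 genes at the adjusted limits, and 0 of the 10 adipocyte genes. All 3 GB2 tumors lay above all 3 PBS tumors in 2 adipocyte genes, Plin1 and Lpl, against 8.61% of all genes, and the reverse order held in 0 of the 10, against 6.68%.

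Most of the positive fold changes were smaller without PBS tumor 3. Then the median log2 fold change of the 10 genes was 0.23, 9 of the 10 were higher in GB2 tumors, and 0 passed the limits. The median rose instead, to 1.04 when PBS tumor 1 was left out and to 1.002 when it was PBS tumor 2, although Retn was at 1.32 in the former case and Pparg at 0.39 in the latter, below their values with all tumors. The highest value of each gene with a PBS tumor left out came from 1 of these 2. Adipoq reached 1.18, Plin4 0.75, Fabp4 1.03, Lep 1.28, Pparg 0.61 and Lpl 1.21 with PBS tumor 1 left out, and Plin1 reached 1.38, Cidec 0.97, Cfd 1.09 and Retn 2.52 with PBS tumor 2 left out, with 0 of the 10 past the limits.

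**Figure D2:**
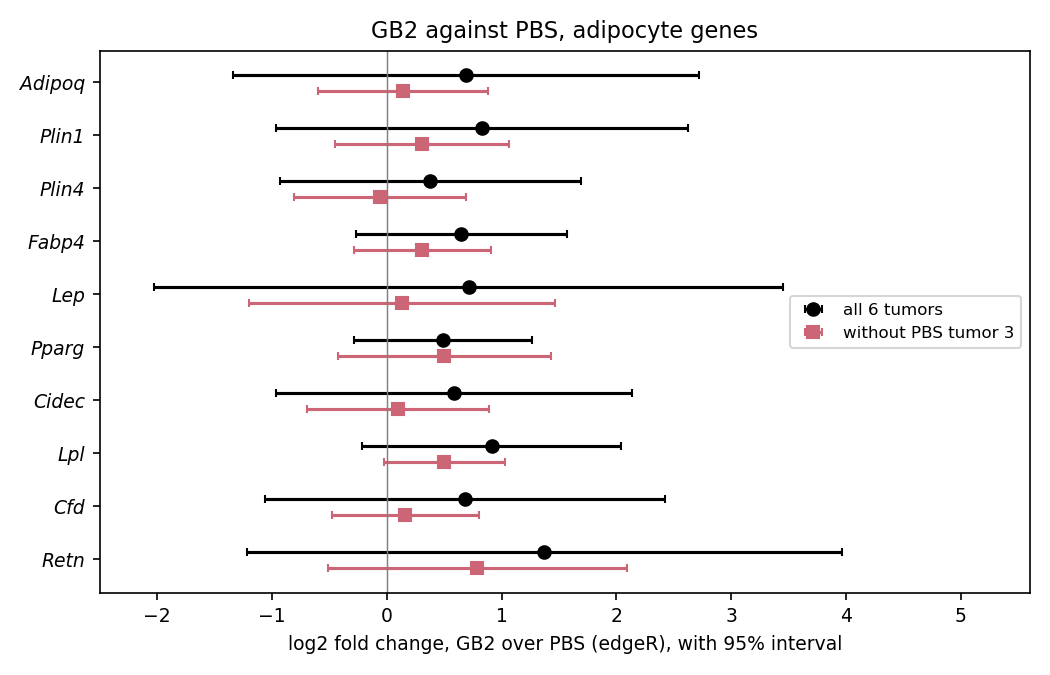
Log2 fold changes of GB2 over PBS from edgeR with 95% intervals, for all 6 tumors (black circles) and without PBS tumor 3 (red squares). Each interval includes 0, and leaving out the tumor moved Adipoq from 0.69 to 0.14 while Pparg stayed at 0.49 and 0.50. Without GB2 tumor 3, a fit outside this figure, Pparg was at 0.30.

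The secreted products were Adipoq, Cfd, Lep and Retn. Adipoq encodes adiponectin, the hormone by which fat raises insulin sensitivity in liver and muscle, and it lies on chromosome 16 from 22965286 to 22976778 on the plus strand (ENSMUSG00000022878, positions of the deposited table). Its counts were 240, 249 and 12 in the PBS and 426, 320 and 308 in the GB2 tumors. Since about 4 counts stand for 1 read pair, the 12 counts of PBS tumor 3 are about 3 read pairs. The CPM were 4.06, 3.53 and 0.170 in the PBS and 5.07, 3.85 and 3.62 in the GB2 tumors. PBS tumor 1 lay within the range of the GB2 tumors, PBS tumor 2 just below it and PBS tumor 3 far below it. Means were 2.59 ± 2.11 CPM (SD, n = 3) in PBS and 4.18 ± 0.780 CPM (SD, n = 3) in GB2 tumors, a log2 difference of 0.69 (SE 0.87, adjusted p = 0.864). Without PBS tumor 3 the log2 difference was 0.14 (SE 0.31) with a 95% interval from -0.59 to 0.88.

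Cfd encodes adipsin, the serine protease also known as complement factor D, which starts the alternative complement pathway and is made in quantity by fat. Cfd lies on chromosome 10 from 79726687 to 79728489 in the same table. It had the highest mean FPKM of the 10 genes, at 10.6, FPKM being the length-scaled unit in which levels of different genes can be set side by side. Its CPM were 11.0, 11.7 and 0.962 in the PBS and 15.6, 10.3 and 12.04 in the GB2 tumors. PBS tumors 1 and 2 lay within the range of the GB2 tumors and PBS tumor 3 lay below it. The log2 difference was 0.68 (SE 0.75, adjusted p = 0.845), and it was 0.16 without PBS tumor 3.

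Lep encodes leptin, the hormone that reports fat stores to the hypothalamus. Lep lies on chromosome 6 from 29060219 to 29073876 in the same table. Its counts were 66, 65 and 0 in the PBS and 41, 119 and 121 in the GB2 tumors. The count of 0 in PBS tumor 3 allows up to 3 read pairs, or 0.170 CPM, while the other 5 tumors were between 0.488 and 1.43 CPM. GB2 tumor 1 was lower than PBS tumors 1 and 2, so the groups overlapped beyond the low PBS tumor. The log2 difference was 0.72 (SE 1.17, adjusted p = 0.893), and 0.13 without PBS tumor 3.

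Retn encodes resistin, which mouse adipocytes secrete and which opposes insulin action. Retn lies on chromosome 8 from 3705770 to 3710110 in the same table. Its counts were 20, 54 and 0 in the PBS and 104, 75 and 62 in the GB2 tumors, or 0.338, 0.766 and 0 CPM against 1.24, 0.901 and 0.729 CPM. PBS tumor 2 lay above GB2 tumor 3, and PBS tumor 1 lay below all GB2 tumors. Retn had the largest fitted log2 fold change of the 10 genes, 1.37 (SE 1.11, adjusted p = 0.799). Without PBS tumor 3 it was 0.79 with a 95% interval from -0.51 to 2.09.

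The lipid droplet proteins were Plin1, Plin4 and Cidec. Plin1 encodes perilipin 1, the droplet coat of mature adipocytes that holds back or admits lipases. Plin1 lies on chromosome 7 from 79369966 to 79382651 in the same table. Its counts were 123, 189 and 13 in the PBS and 259, 236 and 245 in the GB2 tumors. The CPM were 2.08, 2.68 and 0.184 in the PBS and 3.08, 2.84 and 2.88 in the GB2 tumors. The groups did not overlap, and the lowest GB2 tumor stood close above PBS tumor 2. The means were 1.65 ± 1.30 CPM (SD, n = 3) and 2.93 ± 0.132 CPM (SD, n = 3), and the log2 difference was 0.83 (SE 0.77, adjusted p = 0.814). Without PBS tumor 3 it was 0.31, with a 95% interval from -0.45 to 1.06.

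Cidec encodes the protein that fuses small droplets into a large one, called FSP27 in mice. Cidec lies on chromosome 6 from 113401595 to 113412721 in the same table. Its CPM were 2.97, 3.19 and 0.410 in the PBS and 4.17, 2.78 and 2.92 in the GB2 tumors. PBS tumors 1 and 2 were above GB2 tumors 2 and 3. The log2 fold change of 0.58 (SE 0.67, adjusted p = 0.852) was 0.10 without PBS tumor 3.

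Plin4 encodes perilipin 4, a droplet coat that is also known in muscle. Plin4 lies on chromosome 17 from 56407591 to 56416803 in the same table. Its CPM were 5.37, 4.75 and 1.05 in the PBS and 3.88, 4.59 and 6.07 in the GB2 tumors. GB2 tumor 1 was below PBS tumors 1 and 2. The log2 difference was 0.38 (SE 0.56, adjusted p = 0.883), and its sign turned to -0.058 without PBS tumor 3.

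Fatty acid uptake and binding were represented by Lpl and Fabp4. Lpl encodes lipoprotein lipase, which frees fatty acids from circulating triglyceride at the capillary wall. Lpl lies on chromosome 8 from 69333143 to 69359586 in the same table. Its counts were 906, 1040 and 263 in the PBS and 2038, 1548 and 1764 in the GB2 tumors. The CPM were 15.3, 14.8 and 3.72 in the PBS and 24.3, 18.6 and 20.7 in the GB2 tumors, so all GB2 tumors were above all PBS tumors. Lpl had the smallest unadjusted p of the 10 genes, 0.0983, at a log2 difference of 0.91 (SE 0.48, adjusted p = 0.757). Without PBS tumor 3 the log2 difference was 0.50 (SE 0.22, adjusted p = 0.471) with a 95% interval from -0.03 to 1.03.

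Fabp4 encodes the fatty acid carrier of adipocytes, also called aP2. Fabp4 lies on chromosome 3 from 10269148 to 10273636 in the same table. In CPM it was the most abundant of the 10 genes, at 46.0, 34.5 and 14.6 in the PBS and 50.2, 39.2 and 59.8 in the GB2 tumors. PBS tumor 1 was above GB2 tumor 2, and PBS tumor 3 was the lowest. The means were 31.7 ± 15.9 CPM (SD, n = 3) and 49.7 ± 10.3 CPM (SD, n = 3), and the log2 difference was 0.65 (SE 0.40, adjusted p = 0.761). Without PBS tumor 3 it was 0.31, and without PBS tumor 1 it was 1.03.

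Pparg encodes PPARγ and was the exception to the low values of PBS tumor 3. Pparg lies on chromosome 6 from 115337912 to 115467360. Its counts were 91, 81 and 96 in the PBS and 153, 125 and 201 in the GB2 tumors. The CPM were 1.54, 1.15 and 1.36 in the PBS and 1.82, 1.50 and 2.36 in the GB2 tumors, and GB2 tumor 2 was just below PBS tumor 1. The log2 difference was 0.49 (SE 0.33, adjusted p = 0.778), and leaving out PBS tumor 3 left it at 0.50.

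In FPKM, the order of the 10 genes from the highest mean over the tumors was Cfd at 10.6, Fabp4 at 8.67, Adipoq at 2.33, Lpl at 1.48, Cidec at 1.40, Plin4 at 0.640, Pparg at 0.520, Plin1 at 0.464, Retn at 0.400 and Lep at 0.252. The spread over tumors of one group exceeded many of the steps between neighbours in this order. In GB2 tumors, Cfd at 13.5 ± 3.15 FPKM (SD, n = 3) and Fabp4 at 10.9 ± 2.46 FPKM (SD, n = 3) overlapped, while Adipoq at 2.97 ± 0.589 FPKM (SD, n = 3) lay below both in each GB2 tumor. Lpl and Cidec overlapped in both groups, as did Plin4, Pparg, Plin1 and Retn among themselves. Lep lay below Retn in each GB2 tumor, while the PBS tumors of the 2 genes overlapped.

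The depth of the dip in PBS tumor 3 differed between the genes. Expressed as a percentage of the median CPM of the gene over the 6 tumors, PBS tumor 3 was at 4.54% for Adipoq, 6.66% for Plin1, 8.48% for Cfd and 13.9% for Cidec. It was at 21.9% for Lpl, 22.4% for Plin4 and 34.2% for Fabp4, and at 89.3% for Pparg. For Lep and Retn the count of 0 allows up to 16.7% and 22.7%, so their place in this order is not set. Adipoq and Plin1 had only 12 and 13 counts in PBS tumor 3, so their percentages are uncertain and the order between them is not set either. Of the genes with counts there, those with the C/EBP core in a promoter window ran from 6.66% for Plin1 to 89.3% for Pparg, and those whose windows lack it from 4.54% for Adipoq to 22.4% for Plin4. In the other 5 tumors the lowest percentages were 45.2% for Retn in PBS tumor 1 and 47.9% for Lep in GB2 tumor 1, both genes with few counts.

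**Figure D3:**
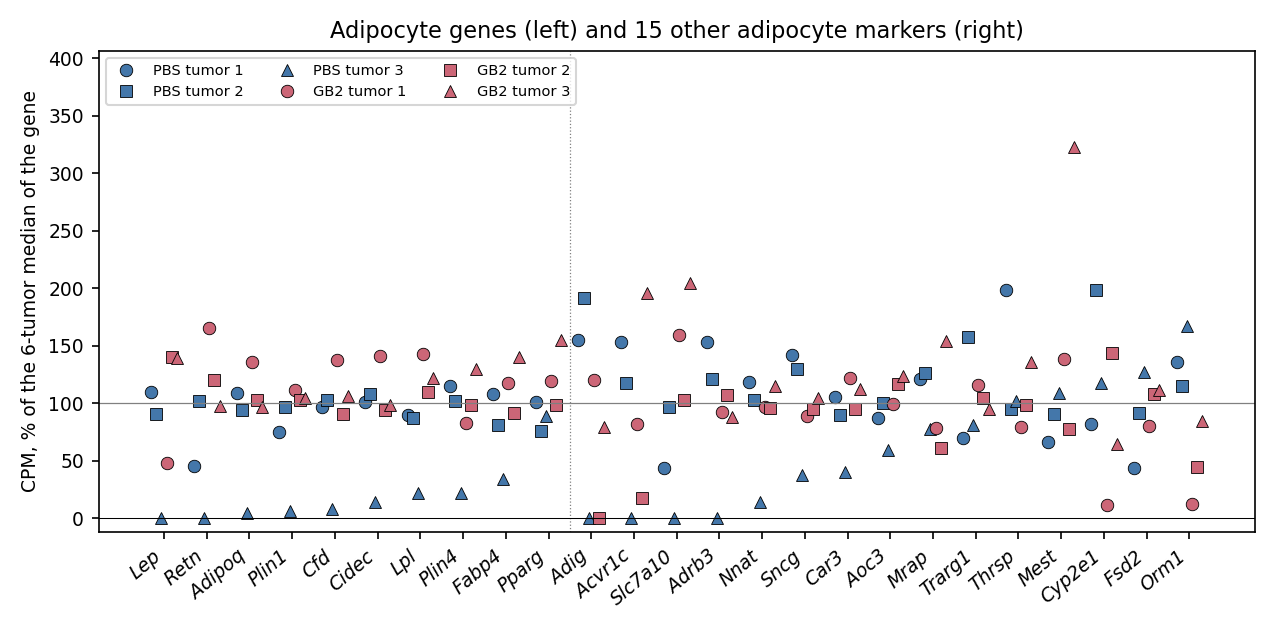
CPM of each tumor as a percentage of the 6-tumor median of the gene, for the 10 adipocyte genes (left of the dotted line) and 15 further adipocyte markers (right), ordered by PBS tumor 3. PBS tumor 3 has 0 counts for 2 genes on the left and for 4 on the right, and reaches 89.3% for Pparg and 167% for Orm1.

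Likeness of profile was measured as the root mean square difference between log2 CPM values of 2 genes over the 6 tumors, each centred on its own mean, and is a description without a test. Among all genes tested, Cfd was the nearest to Adipoq, at 0.31, and Plin1 was the 4th nearest, at 0.33. Retn ranked 30th, Cidec 43rd, Lep 116th, Lpl 156th, Plin4 228th and Fabp4 423rd, while Pparg ranked 4537th, at 1.56. Lep and Retn had 0 counts in PBS tumor 3, so their ranks are not set exactly. The nearest genes outside the 10 were 2700038G22Rik at 0.32, Csta1 at 0.32, Mir142hg at 0.36, Gm15953 at 0.37, Cd200r4 at 0.37, Serpina3c at 0.39, Arhgap44 at 0.40 and Gm37320 at 0.41. Of these, 2700038G22Rik had 30 counts in PBS tumor 3 and 400 to 625 in the other tumors, and the other 7 had 0 counts in PBS tumor 3 and at most 76 in any tumor. Against the mean profile of the 10 genes, the nearest were Traf1 at 0.20, Nnat at 0.22, Kcnk3 at 0.25, Abcd2 at 0.26, Alox5 at 0.27, 4933428G20Rik at 0.30, Ccl2 at 0.30 and F7 at 0.30. In PBS tumor 3, Kcnk3 and 4933428G20Rik had 0 counts, Alox5 4, Traf1 6 and Abcd2 8, all under the detection limit of 12 counts. F7, Nnat and Ccl2 had 16, 42 and 71 counts in that tumor.

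Further markers of mature adipocytes gave a mixed picture in PBS tumor 3. Of 15 such genes, 15 were tested, 8 were lowest in PBS tumor 3, and 4 had 0 counts there. These were Adrb3, the β3-adrenergic receptor that starts lipolysis, at 0 against 58 to 70 counts in the other tumors, Slc7a10, an amino acid transporter of white fat, at 0 against 9 to 61 counts, Acvr1c at 0 against 4 to 46 counts, and Adig, which also had 0 counts in GB2 tumor 2. Nnat was at 0.594 CPM in PBS tumor 3 against 3.92 to 4.87 CPM, and Car3, the carbonic anhydrase of fat and slow muscle, was at 10.9 CPM against 24.5 to 33.3 CPM. Mest and Cyp2e1, which had the highest mean FPKM of the list, were not lowest in PBS tumor 3. Between the groups 9 of the 15 had positive and 6 negative log2 fold changes, with a median of 0.07, and 0 were called. Orm1, an acute phase protein that liver and fat secrete, reached an unadjusted p of 0.036 with a log2 difference of -1.55 (adjusted p = 0.679).

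The partners of Lpl and the genes of fatty acid uptake included genes in both directions. Of 12 genes, 5 had positive and 7 negative log2 fold changes, the median was -0.13, 2 were lowest in PBS tumor 3, and 0 were called. Cd36, the fatty acid transporter shared by fat, capillary endothelium and macrophages, was at 10.1, 11.1 and 8.29 CPM in the PBS and 23.9, 20.8 and 23.0 CPM in the GB2 tumors. Its groups did not overlap, and its log2 difference was 1.20 (SE 0.20, adjusted p = 0.190). Gpihbp1, which anchors Lpl to capillary endothelium, was at 7.20, 5.69 and 6.89 CPM against 11.4, 13.4 and 12.6 CPM, a log2 difference of 0.92 (adjusted p = 0.282). Angptl4, a secreted inhibitor of Lpl, was at 2.91, 4.30 and 2.66 CPM against 6.50, 7.73 and 10.5 CPM, a log2 difference of 1.33 (adjusted p = 0.282). In these 3 genes PBS tumor 3 stood close to the other PBS tumors. Apoc2, the activator of Lpl, had a log2 difference of -1.72 (adjusted p = 0.700), on 7 to 54 counts. Fabp5, the epidermal fatty acid carrier and the most abundant gene of the list per length, had a log2 difference of -0.17, and Slc27a4, a fatty acid transport protein, had -0.19.

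Of 10 further lipid droplet genes, 1 was lowest in PBS tumor 3. It was Plin2, the droplet coat of most cell types, chosen here after its values were seen, at 120, 101 and 89.0 CPM in the PBS and 119, 130 and 92.4 CPM in the GB2 tumors. The list, led per length by Hilpda and Plin3, summed to 626 CPM in PBS tumor 3, above PBS tumors 1 and 2 at 497 and 545 CPM. Of its genes 6 were higher and 4 lower in GB2 tumors, with 0 called. Hilpda, a hypoxia-induced inhibitor of lipolysis, was at 108, 76.3 and 77.9 CPM in the PBS and 31.0, 66.9 and 54.8 CPM in the GB2 tumors, a log2 difference of -0.78 (adjusted p = 0.670). Plin3, a droplet coat found in most cells, and Cideb had log2 differences of 0.20 and -0.51. The synthesis list of fatty acids and triglyceride summed to 2544, 3932 and 5432 CPM in PBS tumors 1, 2 and 3 and to 4965, 5094 and 3878 CPM in GB2 tumors. There PBS tumor 3 was the highest and PBS tumor 1 the lowest. PBS tumor 3 was lowest in 0 of its 18 genes, and 13 were higher and 5 lower in GB2 tumors with 0 called. Scd2, a fatty acid desaturase, had a log2 difference of 0.21, Acly, which makes cytosolic acetyl-CoA, had 0.45, and Acaca, which makes malonyl-CoA, had 0.46 with all GB2 tumors above all PBS tumors.

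In triglyceride breakdown, 9 of 10 genes were tested, 8 were higher and 1 lower in GB2 tumors, 5 were lowest in PBS tumor 3, and 0 were called. Pde3b, the phosphodiesterase through which insulin restrains lipolysis, had a log2 difference of 0.87 (adjusted p = 0.717). Pnpla2 and Lipe, the lipases for the first and second step of triglyceride breakdown, had log2 differences of 0.17 and 0.16, and Mgll, the lipase of the last step, had 0.35. Among 12 adipogenic transcription factors, 9 were higher and 3 lower, with 4 lowest in PBS tumor 3 and 0 called. Ebf1 had a log2 difference of 1.28 (adjusted p = 0.353), and Cebpa, which cooperates with PPARγ, had 189, 262 and 95 counts in PBS tumors and 247, 311 and 441 in GB2 tumors, with the lowest value in PBS tumor 3. Ebf2 had a log2 difference of 1.03 (adjusted p = 0.737), on 17 to 57 counts. Prdm16 and Ppargc1a, the factors of this list with the highest mean FPKM, had log2 fold changes of -0.04 and 0.44.

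Of 7 genes of adipokine reception, 6 were higher and 1 lower in GB2 tumors, with 0 lowest in PBS tumor 3 and 0 called. Adipor1 and Adipor2, the adiponectin receptors, had log2 fold changes of 0.11 and 0.03 with standard errors of 0.19 and 0.15, and Lepr, the leptin receptor, had 0.41 with a standard error of 0.50 on 21 to 86 counts. C3ar1, the receptor of the complement fragment C3a, had a log2 difference of 1.84 (adjusted p = 0.186), and it is also a gene of macrophages. Cap1 and Cdh13, which bind resistin and adiponectin, had log2 differences of 0.33 and 0.60, and Cap1 was at 50.2 CPM in PBS tumor 1 against 168 to 185 CPM elsewhere. Of the 9 genes of insulin signalling and glucose uptake, 6 were higher and 3 lower, with 0 lowest in PBS tumor 3 and 0 called, and Slc2a4, the insulin-responsive glucose transporter, had a log2 difference of 0.76 (adjusted p = 0.757). Akt2 and Cavin2 had log2 differences of 0.21 and -0.10, and Cav1, the caveolar coat protein, had 0.40 with all GB2 tumors above all PBS tumors.

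Cell type markers were set beside these values. In PBS tumor 3 the marker sums of macrophages, at 63.4 CPM, fibroblasts, at 292 CPM, adipocyte progenitors, at 16.7 CPM, keratinocytes and skin, at 45.8 CPM, neutrophils, at 4.20 CPM, and tumor epithelium, at 3.00 CPM, were also the lowest of the 6 tumors. In PBS tumors 1 and 2 they were 73.9 and 89.5, 408 and 523, 27.8 and 25.6, 115 and 60.5, 6.19 and 5.76, and 5.97 and 3.92 CPM in the same order. The skeletal muscle sum of PBS tumor 3, at 165 CPM, was the highest of the PBS tumors, and the endothelial sum, at 79.5 CPM, lay between 79.4 CPM in PBS tumor 1 and 92.3 CPM in PBS tumor 2. The markers lowest in PBS tumor 3 were 6 of 10 for macrophages, 4 of 6 for fibroblasts, 5 of 8 for keratinocytes and skin, 3 of 8 for endothelium, 1 of 6 for neutrophils, 2 of 5 for tumor epithelium and 0 of 8 for skeletal muscle. The part of these cell types in the low adipocyte values was not tested. Between the groups, 10 of 10 macrophage, 6 of 6 fibroblast and 7 of 8 endothelial markers had all GB2 tumors above all PBS tumors, where the share of all genes was 8.61%. Their median log2 fold changes were 1.94, 1.45 and 1.26, and edgeR called 0 of them, as it called 0 of all genes, while DESeq2 called 337 of all genes higher. The progenitor list had 8 of 8 genes higher with a median of 0.96, 6 of them with all GB2 tumors above all PBS tumors. In this list 5 of the 8 were lowest in PBS tumor 3. Its members with the smallest p were Pdgfra, with a log2 fold change of 1.93 and an adjusted p of 0.186, and Fap, with 2.03 and 0.248, and both are also fibroblast genes. Cd34 and Ly6a had log2 differences of 1.11 and 1.05.

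**Figure D4:**
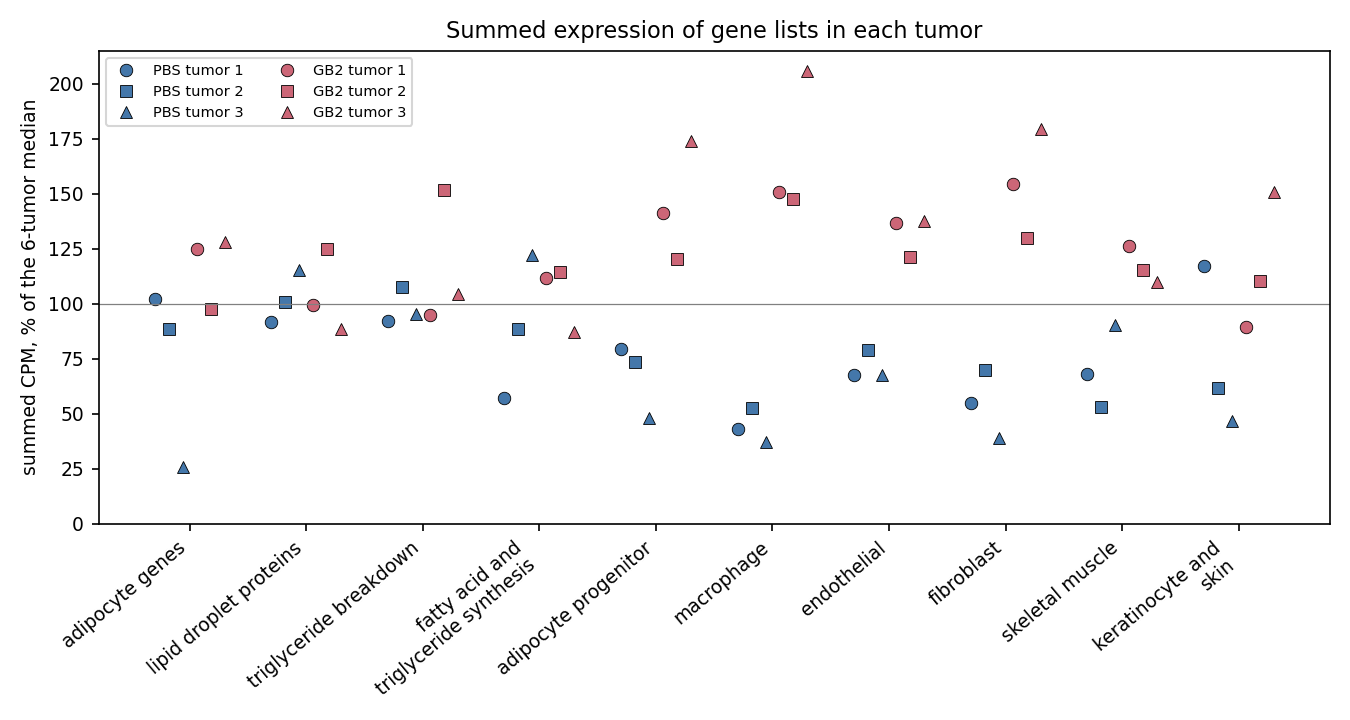
Summed CPM of gene lists in each tumor as a percentage of the 6-tumor median of the sum. For the adipocyte genes PBS tumor 3 (22.4 CPM) stands far below the other tumors and the groups otherwise overlap, whereas for macrophage, endothelial and fibroblast markers each GB2 tumor lies above each PBS tumor.

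Over all genes the PBS library that stood apart was tumor 1, whose counts differed from those of PBS tumors 2 and 3 by 122 and 155 times counting noise (chi-square per degree of freedom), against 26.2 between tumors 2 and 3. Total counts were 64764405 to 69878156 in PBS and 81210553 to 83690056 in GB2 tumors, with PBS tumor 3 at 69474403, TMM factors ran from 0.914 in PBS tumor 1 to 1.04, and the largest gene took at most 1.08% of a library. The variation between tumors of a group, a biological coefficient of variation of 40.5%, limits what 3 tumors a group can show. Markers of tumor epithelium were low in all 6 tumors. Their summed level was 3.00 to 5.97 CPM in PBS and 4.08 to 8.51 CPM in GB2 tumors over 6 genes, Epcam had 12 to 86 counts, and Krt8, Krt19 and Krt20 each had 0 counts in at least 1 tumor. The neutrophil marker Ly6g had 0 counts in all 6 tumors. Of the 7 neutrophil markers 6 were tested, and 6 were higher in GB2 tumors, with a median log2 fold change of 1.97. In 5 of them all GB2 tumors lay above all PBS tumors, against 8.61% of all genes, and edgeR called 0.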

How the data were processed

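RNA-seq of 6 tumors, 3 PBS and 3 GB2, was read from 1 table. The submitters' processing notes name cutadapt 1.9, HISAT2 2.2.1, StringTie 2.1.6, DESeq2, edgeR and mm10 without roles. The authors deposited estimated counts, whole numbers not scaled between tumors. From 3 upwards, small numbers cluster at multiples of 4 (7017 values of 4, 2984 of 3, 2017 of 5). Values of 1 and 2 were also common, at 5446 and 4996, so 4 counts per read pair is an approximation. FPKM values, scaled by the authors for length and library, were also deposited. The GRCm38 annotation shares 31999 gene IDs with the table, of which 641 have the same start and end (0 of the 10 adipocyte genes), so gene positions are the table's own, on a build not established here. Promoters are on GRCm38.p6.

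Counts were tested in R 4.3.3 with edgeR 4.0.16 (filterByExpr with a minimum count of 10, TMM, glmQLFit, glmQLFTest) and Benjamini-Hochberg adjustment over 19602 genes. Standard errors and 95% intervals come from the test statistic, and a prior count of 2 entered log2 CPM. A library was taken to be at the detection limit under 3 read pairs (12 counts), which covers counting error alone. Alternatives used DESeq2 1.42.0, limma 3.58.1, other scaling, filters, a replicate block and each tumor left out. Libraries of a group differed by 17.3 to 155 times counting noise (chi-square per degree of freedom), so none was treated as a duplicate. The scripts were tested on simulated data.

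The adipocyte genes, the other gene lists and the tests were chosen with earlier results of these data known. Named genes were the 10 adipocyte genes, the 8 genes nearest to Adipoq and the 8 nearest to their mean profile, and, of the fat-related lists, those with the highest mean FPKM, the smallest p, or a 2-fold difference at an unadjusted p below 0.05. The other cell type lists are given mainly by counts and sums, and other genes named were chosen after their values were seen. The sources give no batch, so none was tested. A gene that this rule would name is not reported here.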

Additional observations from a re-analysis of the deposited data

How the results depend on the processing

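Over 14 alternatives, 139 of 140 log2 fold changes of the adipocyte genes kept their direction and 0 of 140 passed the limits, with a smallest adjusted p of 0.471. Their sizes changed more: in limma on log2(FPKM + 1), which understates low genes, the median was 0.44 against 0.69, Retn was at 0.40, Plin1 0.31, Lep 0.16 and Pparg 0.19, and Cfd was the largest at 1.10. The exception was Plin4, whose log2 fold change was -0.058 without PBS tumor 3 and up to 0.75 without any other single tumor. At the same limits DESeq2 called 373 genes (337 higher, 36 lower), where edgeR called 0 with any scaling, filter, block or left-out tumor, and limma on FPKM called 0. Genes at an unadjusted p under 0.05 and a fold of at least 2 numbered 733 higher and 180 lower with all tumors, 950 and 168, 810 and 310, and 832 and 548 without PBS tumor 1, 2 and 3, 893 and 338 with no filter on low counts, 949 and 382 in DESeq2, and 95 and 36 with limma on log2(FPKM + 1), 92 and 26 without its filter. Adipocyte genes reached that limit in 2 settings. Lpl and Retn, 2 of the 10, did so in limma on log2(FPKM + 0.1), where 658 of 19042 genes reached it on the higher side. Fabp4, 1 of the 10, did so without PBS tumor 1, where 950 of 20529 genes reached it on that side. Equal numbers were not taken as pairs, since their deviations correlated at 0.0313, 0.154 and -0.245. With the replicate block 0 genes were called, 10 of 10 adipocyte genes were higher, and their median log2 fold change was 1.16 against 0.69 without the block. The causes were not tested. Lep, Retn and Plin1 rest on few read pairs. Their fold changes, and those of all other adipocyte genes but Pparg, were smaller without PBS tumor 3. Adipoq moved from 0.69 to 0.14, Cfd from 0.68 to 0.16 and Cidec from 0.58 to 0.10.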

Other observations

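Genes of brown fat were read at low counts, of which Fabp3, shared with muscle, had the most, 64 to 229. Ucp1, the uncoupling protein that defines brown adipocytes, had 0 to 24 counts, Cox8b had 15 to 38 and Dio2 had 0 to 47. The 6 genes of the list summed to between 2.96 and 5.22 CPM, with 2 higher and 4 lower in GB2 tumors and 0 called. Cox7a1, a muscle and brown fat subunit of cytochrome oxidase, had a log2 difference of -0.75 with all GB2 tumors below all PBS tumors, and Fabp3 had 0.28. Of the skeletal muscle markers, 8 of 8 were higher in GB2 tumors, with a median log2 fold change of 0.66 and 0 called. Acta1, skeletal actin, had a log2 difference of 0.95 (adjusted p = 0.276 in edgeR). Of the keratinocyte and skin markers, 7 of 8 were higher, with a median of 0.37 and 0 called. Krt14, a keratin of basal keratinocytes, was at 31.1, 10.7 and 4.58 CPM in PBS tumors and 30.9, 34.9 and 47.5 CPM in GB2 tumors. Its groups overlapped, and 0 genes of this list had all GB2 tumors above all PBS tumors. The reverse order held in 1, Sbsn, with a log2 difference of -0.545 (adjusted p = 0.625 in edgeR).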
